A study of Mus musculus with 4 samples.

Results

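The mouse carboxylesterase genes described here are Ces1a, Ces1b, Ces1c, Ces1d, Ces1e, Ces1f, Ces1g, Ces2c, Ces2e and Ces2g. They were taken by gene name, and make up 10 of the 54532 genes in the deposited expression table and 10 of its 20 carboxylesterase genes. They were chosen by the FPKM difference between Calu-KO and WT, in which Ces1g was among the genes with the greatest increase, so their differences between groups are given as a description with no test. RNA of primary lung fibroblasts of the mouse, as the labels name the cells, was sequenced in 4 libraries, 2 of genotype Calu-WT, written WT from here on, and 2 of genotype Calu-KO. The Calu product, calumenin, binds calcium inside the endoplasmic reticulum (ER) and along the secretory route. The titles of the same samples carry the letters NC and KD, and the sources used here do not give the strain, the age of the mice, the means of targeting or whether replicate libraries stem from different mice or dishes. The spread between 2 libraries of a group may therefore be technical.

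Carboxylesterases are serine hydrolases that cleave ester, amide and thioester bonds. Most reside in the lumen of the ER, where a short signal at the end of the protein retrieves them, and some are secreted. They act on drugs and other foreign esters and on the body's own lipids, among them triglycerides, cholesteryl esters and retinyl esters, and are best known from liver and intestine. In the mouse the genes have multiplied in tandem, so neighbouring copies resemble each other closely.

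Values are in FPKM, fragments scaled to gene length and library size, which allows levels of different genes to be compared per length. The reads of each gene were recovered from the same values, and libraries held 15635448 to 16510048 reads. In a gene 1 kb long, each read added 0.0591 to 0.0684 FPKM. Calu itself had 178 and 177 FPKM in WT, against 14.9 and 10.9 FPKM in Calu-KO. Mitochondrial genes took 2.43% and 2.53% of the WT reads and 2.52% and 4.0% of those in Calu-KO. The 2 Calu-KO libraries differed from each other more than the 2 WT libraries did (median chi-square per gene 9.94 against 1.23). That chi-square scaled the libraries by their summed reads, not by the scaling behind the FPKM values. How much of its size comes from this choice was not tested. Of the fibroblast markers listed, Dcn and Lum had no read in any library, while Vim, which encodes vimentin, averaged 592 ± 5.75 FPKM in WT against 590 ± 84.4 FPKM in Calu-KO (SD, n = 2 each).

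The 7 Ces1 members lie on chromosome 8 (mm10) within a stretch of 516 kb, chr8:93020214-93535830, which holds 9 carboxylesterase genes. The 3 Ces2 members lie in a second stretch of 416 kb on the same chromosome, chr8:104734003-105150109, with 11 such genes. Coding sequences of the 7 Ces1 members were 73.8% to 91.1% identical over 21 pairs (median 77.9%), and those of the 3 Ces2 members 82.9% to 85.7%. Between the Ces1 and Ces2 members identity was 62.3% to 67.4%. Ces1g was closest to Ces1d, at 81.5%, and farthest from Ces1f, at 74.6%.

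**Figure D1:**
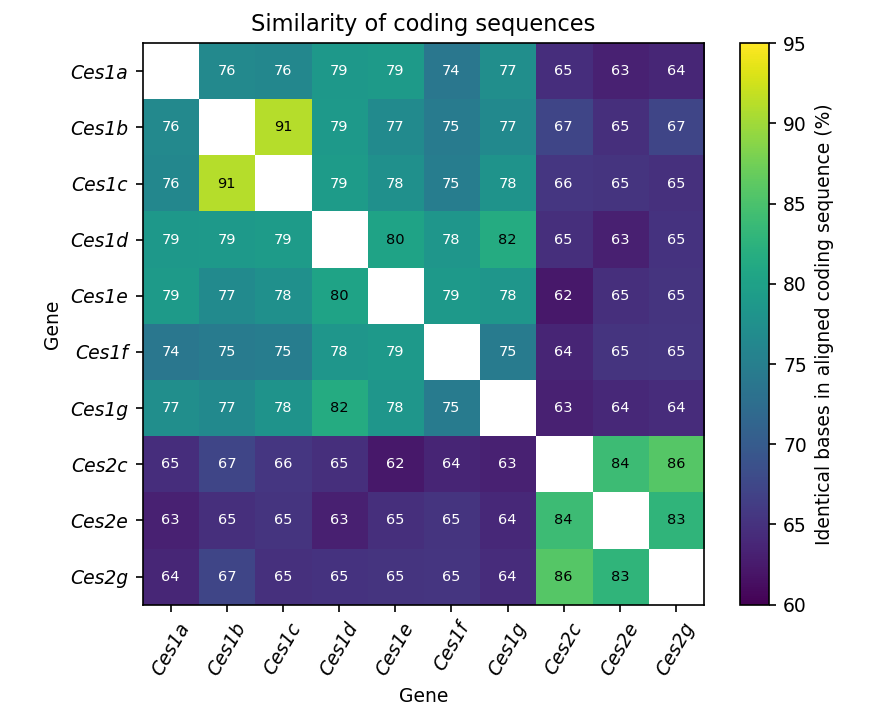
Each square gives the percentage of identical bases in the aligned coding sequences of the genes on the horizontal and vertical axes, from GENCODE M21 transcripts. Ces1b and Ces1c form the closest pair at 91.1%, and all pairs of a Ces1 and a Ces2 gene lie between 62.3% and 67.4%.

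A read that falls in a stretch shared by paralogs cannot be given to 1 gene, so 2 windows of 60 coding bases are shown to bring out how far Ces1g reads can be told from those of its relatives. The first, coding bases 138 to 197 of Ces1g counted from the start codon, lies in exon 2 of 14 at chr8:93335080-93335139 (GRCm38, minus strand) and sits in the middle of the longest run that Ces1g shares with another Ces1 member, 74 bases with Ces1e. Sequences are written 5′ to 3′, and capitals mark bases that differ from Ces1g.
Ces1g: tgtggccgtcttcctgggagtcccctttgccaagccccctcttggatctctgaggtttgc
Ces1e: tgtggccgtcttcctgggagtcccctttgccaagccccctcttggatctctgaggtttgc
Ces1f: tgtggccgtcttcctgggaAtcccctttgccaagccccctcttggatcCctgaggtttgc
Ces1d: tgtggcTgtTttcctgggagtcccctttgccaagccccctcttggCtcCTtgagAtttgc
In this window Ces1c and Ces1e have the same 60 bases as Ces1g, and Ces1f, Ces1b, Ces1a and Ces1d differ at 2, 3, 4 and 6 bases.

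The second window is the first of those without gaps in which the closest Ces1 member differs at the most bases. It covers coding bases 263 to 322 of Ces1g, in exon 3 at chr8:93333668-93333727.
Ces1g: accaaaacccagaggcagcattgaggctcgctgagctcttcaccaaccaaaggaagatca
Ces1e: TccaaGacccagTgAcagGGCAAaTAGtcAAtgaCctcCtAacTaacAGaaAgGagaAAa
Ces1f: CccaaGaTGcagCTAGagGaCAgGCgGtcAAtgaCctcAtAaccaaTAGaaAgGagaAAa
Ces1d: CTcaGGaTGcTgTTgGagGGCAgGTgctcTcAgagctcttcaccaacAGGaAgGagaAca
Here the other 6 Ces1 members differ from Ces1g at 24 to 30 of 60 bases.

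Over the whole Ces1g transcript of 2388 bases, 1.67% of stretches of 50 bases, and 0% of stretches of 100 bases, also occur letter for letter in a transcript of another gene. For Ces2g the shares were 3.95% and 0%, and for Ces1f 1.60% and 0%. Ces2c shared most among the members: 42.2% of its stretches of 50 bases and 16.0% of those of 100 bases occur elsewhere, in part in the pseudogene Ces2d-ps. Ces1b and Ces1c shared 11.6% and 17.0% of stretches of 50 bases. Read length and the treatment of reads with several matches were not given in any source used here, so the values of Ces2c, Ces1b and Ces1c are less certain than those of Ces1g.

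Ces1g, an enzyme known from the liver, where its loss in mice disturbs lipid metabolism, had most of the carboxylesterase reads in these cells and was several times higher in Calu-KO. The gene (ENSMUSG00000057074, chr8:93302369-93337308, minus strand, protein coding, overlapped by no other gene in GENCODE M21) had 5.27 and 6.53 FPKM in WT, from 206 and 259 reads. In Calu-KO it had 32.6 and 26.3 FPKM, from 1317 and 917 reads. Both Calu-KO libraries were above both WT libraries. Its mean was 29.4 ± 4.48 FPKM in Calu-KO against 5.90 ± 0.891 FPKM in WT (SD, n = 2 each), a ratio of 4.99. Taking 1 library of each group at a time, the ratio ran from 4.02 to 6.19. On the log2(FPKM + 1) scale the difference was 2.14. It was 2.29 without Calu-KO replicate 2, the library with the higher mitochondrial share, and 1.99 without Calu-KO replicate 1.

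Across all genes, 11885 that averaged 1 FPKM or more over the 4 libraries were compared between the groups with limma on log2(FPKM + 1), with an adjusted p threshold of 0.05. Of these genes, 0.942% were called higher and 1.83% lower in Calu-KO (112 and 217 genes, or 45 and 152 when libraries were rescaled to their total reads). Of the 10 carboxylesterases, 2 reached the expression filter, Ces1g and Ces2g. Ces1g was called higher and Ces2g was not called, and nothing is read from these calls, since the same contrast chose the genes. In level, it stood above 30.1% and 37.0% of 10202 tested protein-coding genes in the WT libraries and above 85.2% and 80.2% in the Calu-KO libraries. The median protein-coding gene had 9.48 to 9.61 FPKM in each library, so Ces1g passed from below that median in WT to above it in Calu-KO.

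**Figure D2:**
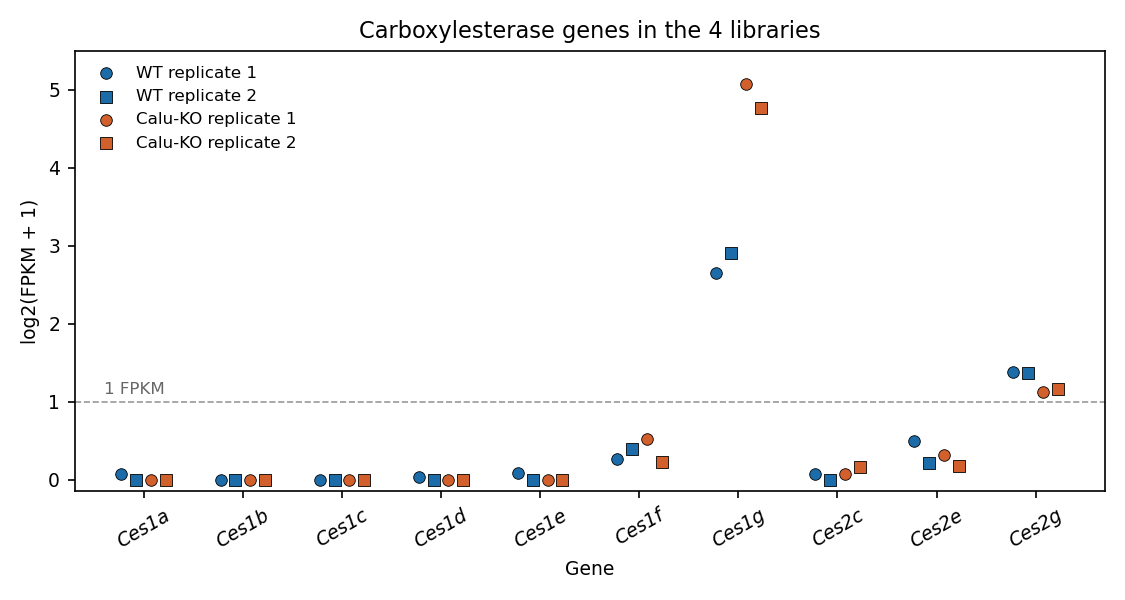
Points show log2(FPKM + 1) of each of the 10 carboxylesterase genes (horizontal axis) in each of the 4 libraries, WT in blue and Calu-KO in orange, with a dashed line at 1 FPKM. Ces1g is the highest gene in every library and separates the groups, Ces2g lies just above the line, and the other 8 genes stay under 1 FPKM in all libraries.

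Ces2g, the Ces2 member with the highest level here, was low in all libraries and slightly lower in Calu-KO. It (ENSMUSG00000031877, chr8:104961718-104969537, plus strand) had 1.61 and 1.58 FPKM in WT, from 94 reads in each library, and 1.17 and 1.24 FPKM in Calu-KO, from 71 and 65 reads. The groups did not overlap, and the means were 1.59 ± 0.0163 and 1.21 ± 0.0493 FPKM (SD, n = 2 each). The ratio of Calu-KO to WT was 0.759, a log2 difference of -0.23 on the log2(FPKM + 1) scale. By scaled reads the ratio was 0.757, with a 95% counting interval of 0.603 to 0.949 that leaves out the spread between libraries. Ces2g was above 2.86% to 5.06% of tested protein-coding genes in the 4 libraries. Of the 2 tested members, 1 (Ces1g) lay above WT in both Calu-KO libraries and 1 (Ces2g) below it, where 32.0% and 29.7% of all tested genes did so. The other members overlapped between groups or had no read. Of all genes with a read, tested or not, 21.3% lay above WT and 24.5% below it. Nothing is read from these counts, since the same contrast chose the genes.

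Ces1f and Ces2e had few reads and overlapped between groups. Ces1f, a hydrolase that acts on triglycerides in liver, had 0.205 and 0.312 FPKM in WT (11 and 17 reads), against 0.432 and 0.167 FPKM in Calu-KO (24 and 8 reads). Its highest and its lowest value were both Calu-KO libraries. The ratio of scaled reads was 1.20 (95% counting interval 0.698 to 2.06). Ces2e had 0.407 and 0.156 FPKM in WT (18 and 7 reads), against 0.241 and 0.127 FPKM in Calu-KO (11 and 5 reads), a ratio of scaled reads of 0.670 (0.334 to 1.30). A difference of either gene was not detectable at this depth.

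The other 6 members were at or near 0. Ces2c, an enzyme with acylcarnitine hydrolase activity, had 2, 0, 2 and 4 reads in WT replicates 1 and 2 and Calu-KO replicates 1 and 2, and the ratio of scaled reads was 3.14 with an interval of 0.561 to 31.8. Ces1a and Ces1e had 2 reads each, and Ces1d 1 read, all in WT replicate 1 and none in the other 3 libraries. Ces1e encodes egasyn, which holds beta-glucuronidase in the ER, and Ces1d a triacylglycerol hydrolase of liver and fat. Ces1b and Ces1c, of which Ces1c encodes an esterase secreted into mouse plasma, had no read in any library. A count of 0 in a library allows up to 3 reads, which for Ces1c is 0.0764 to 0.0884 FPKM and for Ces1b 0.0903 to 0.105 FPKM. These limits cover counting error only.

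Seen as a pool, the 10 genes had 336 and 377 reads in WT, against 1425 and 999 in Calu-KO. These shares are a description, and their intervals treat reads as independent and cover counting error only. Ces1g took 61.3% of them in WT replicate 1 (95% exact Clopper-Pearson interval 55.9% to 66.5%) and 68.7% in WT replicate 2 (63.8% to 73.4%). In Calu-KO it took 92.4% (90.9% to 93.7%) and 91.8% (89.9% to 93.4%). Ces2g took 28.0% and 24.9% of the pool in WT and 4.98% and 6.51% in Calu-KO. The 9 members other than Ces1g together had 130 and 118 reads in WT, against 108 and 82 in Calu-KO, a summed 2.41, 2.05, 1.90 and 1.66 FPKM. The larger pool in Calu-KO is thus made up of Ces1g reads.

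**Figure D3:**
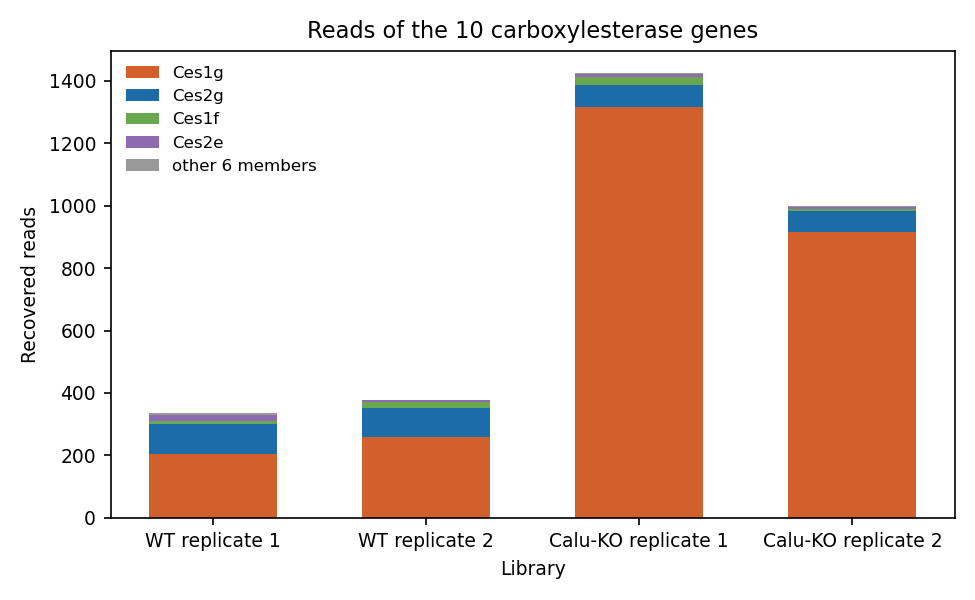
Bars show the recovered reads (vertical axis, from 0) of the 10 carboxylesterase genes in each library, stacked by gene. Ces1g fills 206 and 259 reads in WT, against 1317 and 917 in Calu-KO, while the reads of the other 9 genes together lie between 82 and 130 in all 4 libraries.

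The other 10 carboxylesterase genes of the table (Ces1h, Ces2a, Ces2b, Ces2d-ps, Ces2f, Ces2h, Ces3a, Ces3b, Ces4a and Ces5a) were all under 1 FPKM in every library. Ces2a, Ces2b, Ces2h, Ces3a and Ces3b had no read. Ces4a, which shares no stretch of 50 bases with another gene, had 6 and 7 reads in WT, against 25 and 21 in Calu-KO, or 0.151, 0.173, 0.608 and 0.591 FPKM. Its groups did not overlap, and the ratio of scaled reads was 3.70 (95% counting interval 1.97 to 7.47). With no filter on low values its log2 difference was 0.46 and did not pass the threshold (limma, adjusted p = 0.156). Ces5a had 5 and 4 reads in WT and none in Calu-KO (limma with no filter, adjusted p = 0.237). With no filter, 0 of 24462 genes with a read passed in limma, 3886 had an unadjusted p under 0.05, and limma voom on the recovered reads of the 11885 filtered genes called 830. Of the genes with a read, 21.3% lay above and 24.5% below WT in both Calu-KO libraries.

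The genes around Ces1g were compared in the same way. Of 14 other tested genes within 1 Mb of the Ces1 stretch, limma called 0, where 2.77% of all tested genes were called. For 14 genes, a count of 0 is near that share. The metallothionein genes Mt1 and Mt2, which are close paralogs and were named after their values were seen, were lower at an unadjusted p under 0.05 and called by limma voom (log2 differences -1.30 and -0.85, voom adjusted p = 0.0493 and 0.0427). Of all tested genes, 12.7% were lower at an unadjusted p under 0.05 in limma, and limma voom called 3.95% lower. The median log2 difference of the 14 genes was -0.06, against 0.01 over all tested genes. The nearest protein-coding genes were Slc6a2, the noradrenaline transporter, 18.5 kb before, which had 3 and 2 reads in WT and none in Calu-KO, and Gnao1, a G protein alpha subunit, 274 kb after. Gnao1 had a mean of 5.15 ± 0.375 FPKM in WT against 5.27 ± 1.41 FPKM in Calu-KO (SD, n = 2 each), with a limma adjusted p of 0.978. Within 1 Mb of the Ces2 stretch, 43 other genes were tested, with a median log2 difference of -0.02. Its nearest protein-coding neighbours, Fam96b at 92.0 kb before and Cbfb, a partner of RUNX transcription factors, at 20.6 kb after, did not pass (limma, log2 differences -0.62 and 0.10, adjusted p = 0.255 and 0.581). Of the 43, limma called 1 higher and 1 lower, where 0.942% and 1.83% of all tested genes were called. An unadjusted p under 0.05 was found for 3 higher and 4 lower genes, against 12.0% and 12.7% of all tested genes. Limma voom called 2 higher and 1 lower, against 3.04% and 3.95%. The 2 genes called there by limma were named after their values were seen. Plekhg4, 223 kb past Ces4a, rose from 0.995 ± 0.240 to 4.63 ± 0.695 FPKM (limma, adjusted p = 0.0316), and Cmtm3 fell from 11.1 ± 1.22 to 4.36 ± 0.979 FPKM (adjusted p = 0.0441). The call of Plekhg4 was lost in 4 of 10 alternative analyses and that of Cmtm3 in 6, in both cases with either WT library left out and after rescaling, among others.

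**Figure D4:**
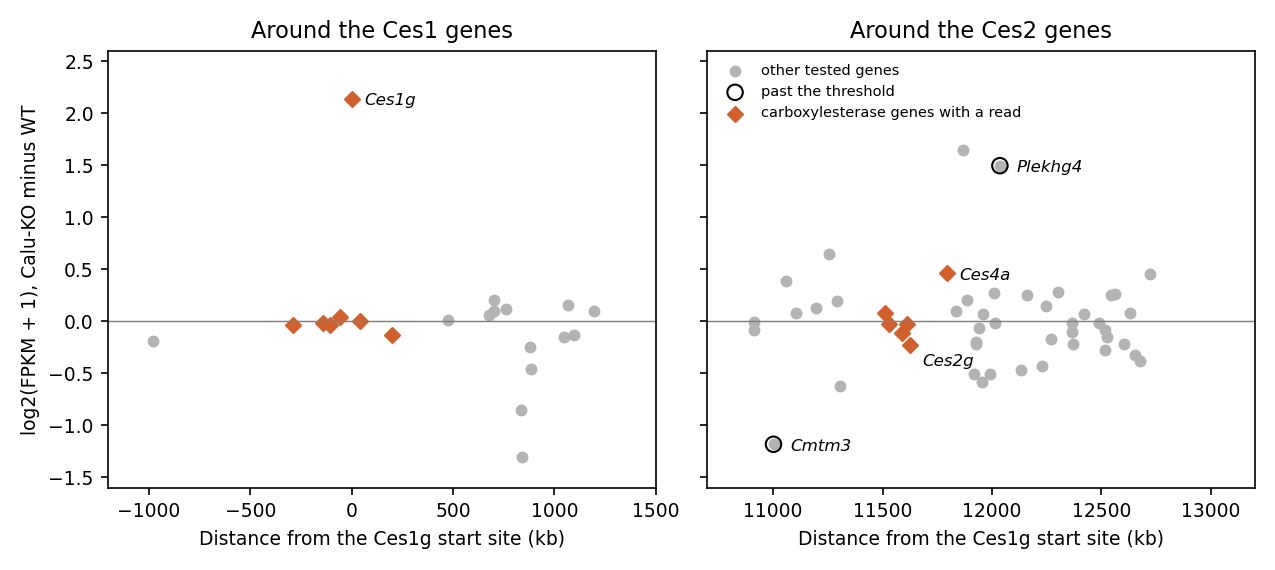
Each point is 1 gene, placed by the distance of its start site from that of Ces1g on chromosome 8 (kb) and by its difference between Calu-KO and WT on the log2(FPKM + 1) scale, with the Ces1 stretch on the left and the Ces2 stretch on the right. Diamonds are carboxylesterase genes with a read, grey points other tested genes, and rings those past the threshold: Ces1g stands at 2.14, and 0 of the 14 genes around it are ringed. Of all tested genes, 2.77% passed the threshold.

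Other enzymes that cleave esters and lipids give the scale on which Ces1g moved. Of the 28 neutral lipid and ester hydrolase genes listed, 20 were tested, with a median log2 difference of -0.02. Limma called 0 of the 20 higher and 1 lower, where 0.942% and 1.83% of all tested genes were called. For 20 genes, these counts are near those shares. The one called lower was Esd, S-formylglutathione hydrolase, at 37.9 and 40.6 FPKM in WT and 22.7 and 24.4 FPKM in Calu-KO. It fell by 0.71 ± 0.11 on the log2 scale (SE; limma, adjusted p = 0.0491), a call that was lost in 6 of 10 alternative analyses. Lipa, the lysosomal acid lipase, stood at 29.1 ± 1.07 and 37.6 ± 3.10 FPKM (limma, adjusted p = 0.157), and Lpl, lipoprotein lipase, at 30.7 ± 1.16 and 33.8 ± 5.59 FPKM (limma, adjusted p = 0.615). Among the 21 genes formed by these 20 and Ces1g, Ces1g ranked 14 and 13 by FPKM in the WT libraries. It ranked 2 and 3 in the Calu-KO libraries, where only Lipa, or Lipa and Lpl, were higher.

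**Figure D5:**
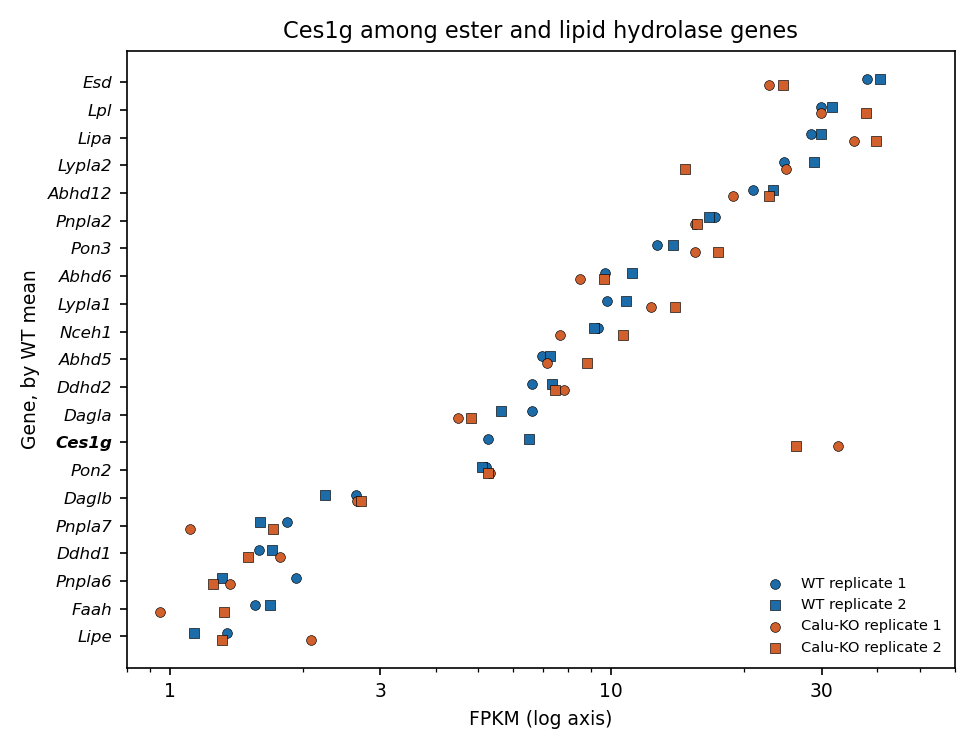
FPKM (horizontal log axis) of Ces1g and 20 other tested ester and lipid hydrolase genes in the 4 libraries, ordered by WT mean. Ces1g moves from 5.27 and 6.53 FPKM in WT to 32.6 and 26.3 FPKM in Calu-KO, and Esd is the one other gene here that was called.

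Genes of the pathways in which carboxylesterases take part were counted from 6 lists, including the ester hydrolases. Of their 90 tested genes, 0 were called higher and 5 lower by limma (0% and 5.56%, against 0.942% and 1.83% of all tested genes). Of the 5, 1 is the targeted gene Calu. An unadjusted p under 0.05 was found for 8 higher and 18 lower genes (8.89% and 20.0%, against 12.0% and 12.7% of all tested genes). Limma voom called 0 higher and 6 lower (0% and 6.67%, against 3.04% and 3.95% of all tested genes). In triglyceride synthesis and lipid droplets, 1 of 19 tested genes was called, Plin2, a lipid droplet coat protein, which stood at 94.3 and 99.1 FPKM in WT and 58.7 and 54.4 FPKM in Calu-KO (adjusted p = 0.0436 in limma, lost in 6 of 10 alternatives). Plin4, another droplet coat protein, stood at 42.0 ± 1.34 and 60.9 ± 4.22 FPKM and did not pass (limma, adjusted p = 0.0867). Agpat1, an acyltransferase of lipid synthesis, had a log2 difference of -0.24 (limma, adjusted p = 0.316). The list median was -0.08.

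Of 16 tested xenobiotic-metabolism enzymes, which handle foreign compounds as carboxylesterases do, 0 were called higher and 1 lower, and the median was -0.12. Of all tested genes, 0.942% were called higher and 1.83% lower. At an unadjusted p under 0.05 in limma, 0 of the 16 were higher and 3 lower. Cbr3, a carbonyl reductase, fell from 25.8 and 23.3 FPKM to 9.62 and 9.82 FPKM, or 2.52-fold (limma, adjusted p = 0.0254). The glutathione transferases Gstp1 and Gstm1 did not pass, with log2 differences of -1.05 and -0.42 (limma, adjusted p = 0.138 and 0.338). Without Calu-KO replicate 1 these were -1.51 and -0.78, and without Calu-KO replicate 2 they were -0.59 and -0.07. Of 14 tested transcription factors and coregulators that sense lipids or foreign compounds, 0 were called higher and 1 lower, with a median of -0.08. At an unadjusted p under 0.05 in limma, 2 of the 14 were higher and 5 lower, against 12.0% and 12.7% of all tested genes. Ppargc1a, a coactivator of oxidative metabolism, fell from 3.08 and 2.68 FPKM to 0.242 and 0.280 FPKM, or 11.0-fold (limma, adjusted p = 0.0266). The sterol and fatty acid regulators Srebf1 and Srebf2 did not pass, at 0.35 and 0.03 (limma, adjusted p = 0.142 and 0.886). The calls of Cbr3 and Ppargc1a were lost without WT replicate 1, without WT replicate 2 and with no filter.

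Of 7 tested genes of retinoid handling, 0 were called by limma, where 0.942% of all tested genes were called higher and 1.83% lower. The list median was -0.25. At an unadjusted p under 0.05 in limma, 1 was higher and 3 lower, against 12.0% and 12.7% of all tested genes. Limma voom called 0 of the 7, against 3.04% higher and 3.95% lower over all tested genes. Crabp2, a cellular retinoic acid binding protein, stood at 81.2 ± 2.02 and 35.2 ± 18.6 FPKM (limma, adjusted p = 0.130). It passed with the replicate number as a block (limma, adjusted p = 0.0495) and with either Calu-KO library left out, at log2 differences of -1.83 without replicate 1 and -0.73 without replicate 2. Rarg, a retinoic acid receptor, had a log2 difference of -0.38 (limma, adjusted p = 0.146). Of 14 genes of ER retrieval, resident ER proteins and beta-glucuronidase, the targeted gene Calu was the only one called, and the list median was -0.10. At an unadjusted p under 0.05 in limma, 2 of these 14 were higher and 4, Calu included, lower, against the same 12.0% and 12.7%. Hspa5, the ER chaperone BiP, stood at 825 ± 8.08 and 555 ± 68.4 FPKM and did not pass (limma, adjusted p = 0.105), nor did the chaperone gene Hsp90b1 (log2 difference -0.15, adjusted p = 0.540).

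Carboxylesterases are abundant in other cell types, so marker genes of such cells, and of fibroblasts, were summed. In bulk RNA, fewer cells of a type and less RNA per cell cannot be told apart. Of 9 hepatocyte genes, Apoa1, Fgb, Serpina1a, Serpina1b and Ttr had no read, and the sum over the list was 0.283, 0.0712, 0 and 0.0206 FPKM in WT replicates 1 and 2 and Calu-KO replicates 1 and 2. Of 6 club and airway cell genes, Scgb3a1 and Scgb3a2 had no read, and the sum was 36.2, 35.9, 54.7 and 33.5 FPKM, nearly all of it Cbr2. Of 10 alveolar epithelial genes, Epcam, Nkx2-1, Sftpa1, Sftpc and Sftpd had no read, and the sum was 5.44, 5.96, 5.29 and 4.50 FPKM. The adipocyte and lipofibroblast list summed to 42.6 and 44.5 FPKM in WT and 34.0 and 40.6 FPKM in Calu-KO, with Cfd, Fgf10, Lep, Retn and Tcf21 at 0, and its member Fabp4 fell from 12.5 ± 0.121 to 3.39 ± 1.09 FPKM (limma, adjusted p = 0.0316, lost in 4 of 10 alternatives). The other tested gene of that list, Lpl, makes up most of the sum and overlapped between groups, with a log2 difference of 0.12. The sums of this list cover 10 of its 11 genes, since Adrp, an older name of Plin2, matched no gene name. Plin2, called lower above, stood at 94.3 and 99.1 FPKM in WT and 58.7 and 54.4 FPKM in Calu-KO. Its value exceeds the sum in each library. The macrophage list summed to 16.0 and 17.1 FPKM in WT and 7.63 and 6.56 FPKM in Calu-KO, with Adgre1 and Itgam at 0. The mesothelial list summed to 35.9 and 32.8 against 25.4 and 22.7 FPKM, the endothelial list to 0.131 to 0.234 FPKM with Cdh5, Cldn5 and Kdr at 0, and the fibroblast list to 1271 to 1535 FPKM. In the macrophage, mesothelial and fibroblast lists 1 gene each was called lower, Lyz2, Krt8 and Col3a1 (limma, log2 differences -1.68, -1.72 and -1.62, adjusted p = 0.0254, 0.0274 and 0.0115). The calls of Lyz2, Krt8 and Col3a1 were lost with either WT library left out. Limma called 1.83% of all tested genes lower. At an unadjusted p under 0.05 in limma, 3 of 3 tested macrophage genes and 2 of 2 tested mesothelial genes were lower, against 12.7% of all tested genes. The further genes were Cd14, Cd68 and Msln (log2 differences -0.58, -0.63 and -0.41, adjusted p = 0.136, 0.0888 and 0.141). Of the fibroblast markers, 2 were lower and 1 higher at that level. Of 8 tested fibroblast markers 5 had a negative difference. Col1a2, a collagen chain, stood at 232 ± 3.22 FPKM in WT against 369 ± 35.9 FPKM in Calu-KO, with no overlap, and did not pass in limma (log2 difference 0.67, adjusted p = 0.0721) but did in limma voom (adjusted p = 0.0499). Several of these sums rest on 1 gene, and their part in the Ces1g difference was not tested.

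The genes whose values were most like those of Ces1g over the 4 libraries were taken by the distance between log2(FPKM + 1) values centred on each gene's mean, among 10201 other tested protein-coding genes. Among the nearest were Mcam, a cell adhesion molecule (distance 0.162), Srp54b, a signal recognition particle subunit (0.531), the growth factor gene Igf1 (0.535) and Wnt10b, a secreted WNT ligand (0.604). Mcam stood at 2.42 and 2.77 FPKM in WT and 18.4 and 13.0 FPKM in Calu-KO, with the higher Calu-KO value in replicate 1, as for Ces1g. Srp54b stood at 3.04 ± 0.910 and 12.2 ± 0.821 FPKM, and Wnt10b at 2.92 ± 0.395 and 14.4 ± 6.78 FPKM (SD, n = 2 each). Srp54b has close paralogs, so its reads are uncertain. Igf1 stood at 0.703 and 0.754 FPKM in WT and 5.61 and 7.85 FPKM in Calu-KO. Likeness over 4 libraries in 2 groups mostly reflects a similar size of difference.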

How the data were processed

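RNA sequencing of 2 WT and 2 Calu-KO libraries was used. Per the submitters' processing notes, reads were aligned with HISAT2 2.0.5 to mm10; the sources used here do not give the read counter, its strand setting or the read length. The authors deposited FPKM values for 54532 genes, already scaled between libraries. FPKM times gene length gave whole multiples of 1 step for 100% of values (within 0.001 reads), so reads per gene were recovered. Genes averaging 1 FPKM or more were compared on log2(FPKM + 1), which understates differences of low genes, with limma 3.58.1 in R 4.3.3 (eBayes with a trend in the prior). Tests were two-sided and adjusted by Benjamini-Hochberg over all tested genes. The step was tested on simulated reads with the same spread in both groups. It recovered 33.2% of genes changed by a log2 of 1 and 88% of those changed by a log2 of 2. Of its calls, 3.52% were false. In the real data the 2 Calu-KO libraries differed more than the 2 WT libraries, so these shares may not hold here. With 2 libraries a group, the smallest two-sided p that exact permutation allows is 0.333. Ratios of scaled reads carry 95% exact binomial intervals, which cover counting error only. Sequences and exons are from GENCODE M21 (GRCm38), in which all 20 carboxylesterase genes had the table's start and end. Coding sequences were aligned globally with Biopython 1.88.

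The members and lists were chosen with earlier results of these data known. Named genes were the members, the other carboxylesterases, up to 4 called genes per list with the largest difference and up to 2 others with the highest mean, the nearest neighbours, the 5 genes most like Ces1g, and Calu. Not every gene this rule took is reported here. Alternatives were another pseudocount, other filters, rescaling to total reads, limma voom, a replicate block and leaving out each library.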

Additional observations from a re-analysis of the deposited data

How the results depend on the processing

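Ces1g was higher in Calu-KO under each alternative run for it: its log2 difference of 2.14 was 2.30 with a pseudocount of 0.1, 2.04 after rescaling to total reads, and 1.99 to 2.29 with 1 library left out. The difference of Ces2g, -0.23, was -0.37 with a pseudocount of 0.1, -0.30 after rescaling and -0.25 to -0.21 with 1 library left out. As a share of summed FPKM instead of reads, Ces1g took on average 72.4% instead of 65.0% in WT and 94.3% instead of 92.1% in Calu-KO.

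The 112 higher and 217 lower genes depended on the settings. With no filter 0 and 0 passed, and with limma voom 361 and 469. After rescaling, which moved the median log2 difference of all genes by -0.10, 45 genes were higher, 22.8% of calls against 34.0%. Counts ran from 8 to 2926 higher and from 34 to 2805 lower with 1 library left out: without WT replicate 1 they were 10 and 38, without WT replicate 2 they were 8 and 34, without Calu-KO replicate 1 they were 2926 and 2805, and without Calu-KO replicate 2 they were 922 and 1130. The lone library of a group is then assumed to vary like the other group. Same-numbered libraries did not deviate together (correlation 0.02), and a fit with the replicate number as a block called 181 and 312 genes. In the pathway lists, 0 genes were higher and 5 lower, against 3 lower with a filter of 0.5 FPKM and 0 to 15 higher and 1 to 26 lower with 1 library left out (15 and 26 without Calu-KO replicate 1, 7 and 17 without Calu-KO replicate 2, 0 and 1 with either WT library left out). The cause of these differences was not tested. Of 39 named genes 15 were called, and 0 of these changed sign in any of the 10 alternatives, but 12 of the 15 lost their call without WT replicate 1, 11 without WT replicate 2 and all 15 with no filter, while 16 of the others gained one without Calu-KO replicate 1 and 10 without Calu-KO replicate 2. With few reads for 8 of the 10 carboxylesterases, only large differences of these genes could be seen.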
